A study of Mus musculus with 6 samples.

Results

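The PI3K, AKT and mTOR pathway was followed here through 49 named genes, picked for their roles, in 2 related mouse pheochromocytoma (PHEO) cell lines. A gene entered when the platform's annotation gave a probe set to that gene alone, and where a gene had several such probe sets the one with the highest mean over the 6 arrays was used. Of the 49 genes, 48 have such a probe set, among 19937 genes in all, and Rps6kb1 was not analysed here. The arrays (Affymetrix Mouse Gene 1.0 ST, 1 per sample) hold untreated cells, 3 samples of the MTT line and 3 of the MPC line. MPC cells come from Nf1 knock-out mice and are described as well differentiated, and MTT cells were derived from liver metastases that MPC cells formed, so both lines share that origin. Each line is a single derivation, so a difference between them belongs to this pair of lines. The labels place a liver metastasis on all 6 samples, so the line was taken from sample titles, which the cell type label matches. Separate preparations are described for the MTT samples only, and p-values therefore measure the spread between these samples, which may be technical.

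Class I PI3K makes the membrane lipid PIP3 after growth factor receptors or Ras call on it, PIP3 recruits the kinases PDK1 and AKT, and AKT in turn phosphorylates FoxO factors, GSK3 and the TSC complex. Release of the small GTPase Rheb from TSC activates mTORC1, the mTOR complex that drives protein synthesis, while amino acids act on the same complex through the Rag GTPases and low energy restrains it through LKB1 and AMPK. In PHEO the pathway is of interest because neurofibromin, the product of Nf1, restrains Ras upstream of PI3K, and because TMEM127, a susceptibility gene of this tumor, limits mTORC1. An array reads RNA only, so the phosphorylation that carries this signal was not measured.

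The values are log2 signals after the RMA method, in which a difference of 1 is a doubling, and levels of different genes cannot be compared since each probe set binds with its own strength. The median log2 signal of an array was 7.73 to 7.77. Chromaffin markers other than Pnmt were present, with Th at 13.48 and a mean over all 10 markers of 11.46 to 11.48 for MTT and 11.44 to 11.47 for MPC, although 3 of the 10 were called, 2 higher and 1 lower in MTT cells. Pnmt, with means of 6.97 in MTT and 7.08 in MPC cells, lay under 8.28, the median over all genes, and is not shown to lie above background. None of 26 markers of adrenocortical cells, hepatocytes, stroma, endothelium or leukocytes differed between the lines (limma adjusted p under 0.05, with 2 at an unadjusted p under 0.05), and their mean signals ran from 4.34 to 8.75. Replicates lay close together for the pathway genes: the median SD over the 48 genes was 0.026 on the MTT arrays and 0.036 on the MPC arrays, against 0.046 and 0.051 over all genes. MPC replicate 3 had the largest median distance from its line mean over the 48 genes, at 0.031, and MTT replicate 3 the smallest, at 0.018. The mean signal of 7 of them (Pik3cg, Inpp4b, Inpp5d, Phlpp1, Sgk1, Foxo4 and Deptor) was at or under 8.28, the median over all genes, and is not shown to lie above background.

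In most of the pathway, 43 of 48 genes, no difference between the lines passed the test, and 5 genes differed. Pik3r1, a regulatory subunit of PI3K, and Tbc1d7, a subunit of the TSC complex, were higher in MTT cells. Foxo1, a transcription factor that AKT inactivates, Rragd, a Rag GTPase, and Prkaa2, a catalytic subunit of AMPK, were lower. The 5 genes are 10.4% of the 48, and the same test (limma on the log2 signals, two-sided, Benjamini-Hochberg adjusted p under 0.05 over all 19937 genes) called 7.87% of all genes, 3.93% as higher and 3.94% as lower in MTT cells. The share called is close to that background. The median difference of the 48 genes, MTT minus MPC, was 0.0015, with 25 above and 23 below 0, and that of all genes was -0.0081. The median size of the difference, without its sign, was 0.047 for the pathway and 0.050 for all genes. At an unadjusted p under 0.05 there were 16 of the 48 genes, a larger share than the 20.5% of all genes (4092 of 19937). For 19 of the 48 genes (39.6%) the 3 arrays of one line all lay above the 3 of the other, which was also so for 27.2% of all genes. Of these 19, 9 were higher in MTT cells (background 11.7%) and 10 lower (background 15.4%). Of the 48 genes, 41 had a signal above the median over all genes. No background of like signal was computed for these shares or for the replicate SDs. In these bulk samples a change in every cell and a change in a part of the cells cannot be told apart.

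**Figure D1:**
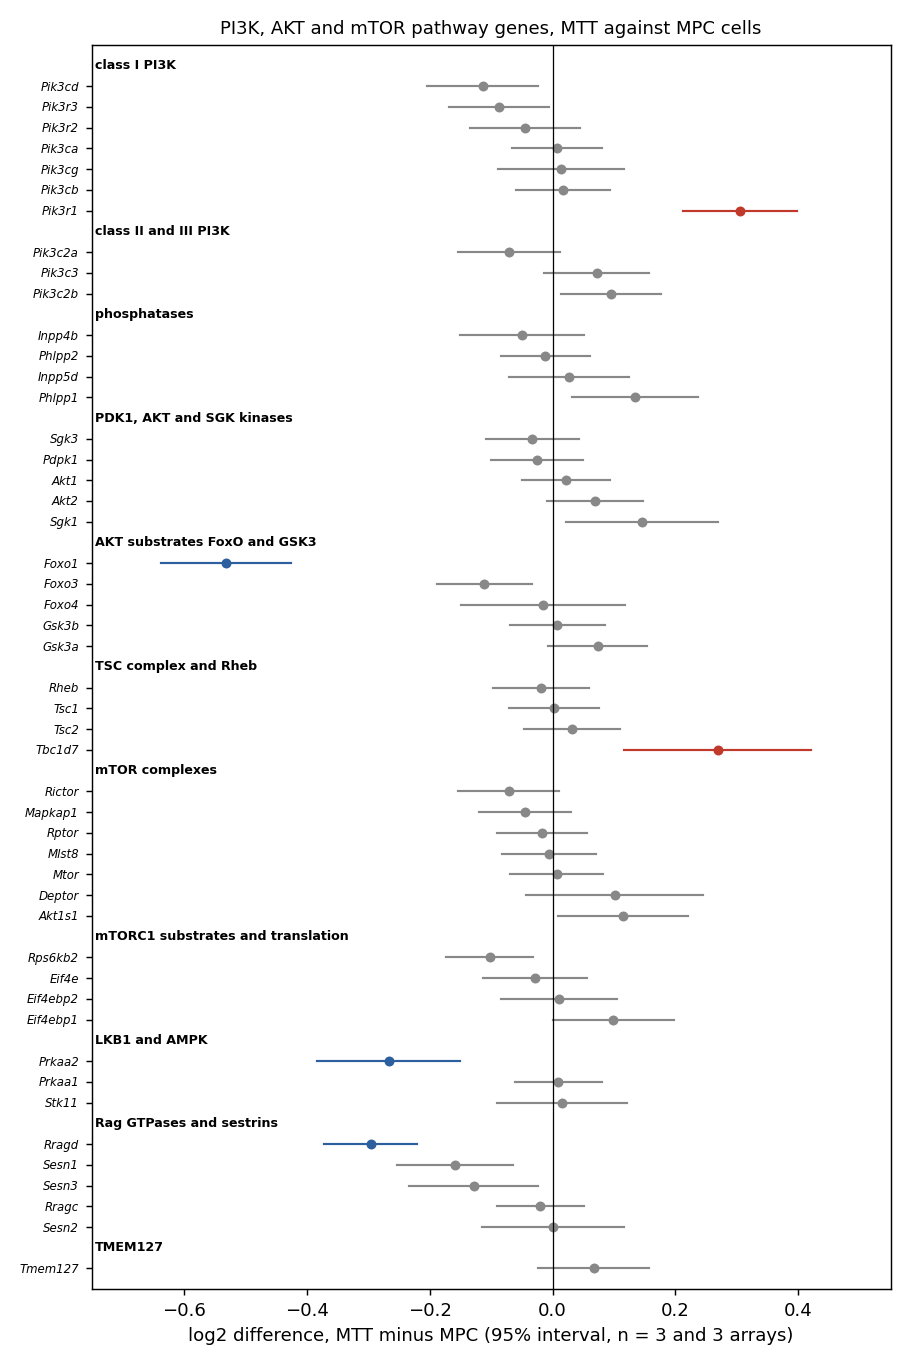
Difference in log2 signal, MTT minus MPC (horizontal axis), of the 48 genes, ordered by role (vertical axis); points are means of 3 against 3 arrays and bars 95% intervals, red for genes higher and blue for genes lower in MTT cells at a limma adjusted p under 0.05, grey for the rest. Foxo1, at -0.53, lies farthest from 0, and intervals of most genes cross 0.

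The promoters of the 5 genes are shown because these are the genes that passed the test. Each sequence holds the 250 bases before the annotated start (RefSeq, GRCm38.p6), read 5′ to 3′ on the strand of the gene: Foxo1 at chr3:52268087-52268336 (+), Rragd at chr4:32982748-32982997 (+), Prkaa2 at chr4:105109899-105110148 (-), Pik3r1 at chr13:101768218-101768467 (-) and Tbc1d7 at chr13:43171502-43171751 (-). For Pik3r1, which has a second annotated start, the upstream one is shown. Capitals mark matches, on either strand, to the GC box GGGCGG, the CCAAT box CCAAT, the E-box CACGTG and the FoxO site GTAAACA, none of which overlap here.
Foxo1: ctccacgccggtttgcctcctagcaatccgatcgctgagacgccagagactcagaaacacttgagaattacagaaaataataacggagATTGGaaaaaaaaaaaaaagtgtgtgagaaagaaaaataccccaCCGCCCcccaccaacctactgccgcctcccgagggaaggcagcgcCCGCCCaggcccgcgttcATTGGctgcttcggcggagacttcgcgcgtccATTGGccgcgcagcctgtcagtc
Rragd: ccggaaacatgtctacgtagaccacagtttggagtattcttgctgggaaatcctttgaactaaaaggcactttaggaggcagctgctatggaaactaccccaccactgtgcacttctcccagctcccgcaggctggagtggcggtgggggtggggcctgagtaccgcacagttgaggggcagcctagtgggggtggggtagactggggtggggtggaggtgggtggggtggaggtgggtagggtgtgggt
Prkaa2: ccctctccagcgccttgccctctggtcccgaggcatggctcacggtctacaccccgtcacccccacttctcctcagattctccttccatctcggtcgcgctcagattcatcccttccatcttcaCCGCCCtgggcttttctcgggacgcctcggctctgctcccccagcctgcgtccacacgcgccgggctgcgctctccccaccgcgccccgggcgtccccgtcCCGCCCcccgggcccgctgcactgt
Pik3r1: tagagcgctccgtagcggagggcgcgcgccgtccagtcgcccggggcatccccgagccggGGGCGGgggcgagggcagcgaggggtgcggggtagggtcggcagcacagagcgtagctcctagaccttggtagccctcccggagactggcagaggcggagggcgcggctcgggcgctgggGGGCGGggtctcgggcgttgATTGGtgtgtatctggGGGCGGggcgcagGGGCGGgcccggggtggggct
Tbc1d7: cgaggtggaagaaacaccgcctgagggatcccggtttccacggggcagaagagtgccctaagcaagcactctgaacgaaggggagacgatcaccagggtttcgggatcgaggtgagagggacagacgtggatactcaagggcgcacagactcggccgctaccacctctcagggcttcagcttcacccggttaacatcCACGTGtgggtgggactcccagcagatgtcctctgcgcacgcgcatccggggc
The Foxo1 window holds 3 CCAAT boxes and 2 GC boxes, that of Pik3r1 4 GC boxes and 1 CCAAT box, and that of Prkaa2 2 GC boxes. The window of the second Pik3r1 start, not shown, has no match to any of the 4 motifs. Which start these cells use was not tested. Tbc1d7 has 1 E-box, the core bound by MYC and TFEB family factors, and Rragd has no match. Of 27025 genes with such windows (32851 in all, a gene counting when any of its windows holds a match), 35.4% hold a GC box, 37.5% a CCAAT box, 6.86% an E-box and 3.54% the FoxO site. Counted the same way, of the 42 pathway genes with a window 30 hold a GC box, 20 a CCAAT box, 5 an E-box (Eif4e, Rheb, Rragc, Sgk1 and Tbc1d7) and 3 the FoxO site (Akt1, Mapkap1 and Pik3cg). The genes called in the same direction thus share no motif of these 4 throughout, and a match is a description of letters, not of binding.

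Among the class I PI3K genes, only the regulatory subunit Pik3r1 passed the test, and none of the 4 catalytic subunits did in the reported fit. Pik3r1 encodes p85 alpha, which holds the catalytic subunit stable and inhibited until a receptor is bound. Its log2 signal was 12.05, 12.03 and 12.04 on the MTT arrays and 11.75, 11.79 and 11.66 on the MPC arrays, in the order of replicates 1, 2 and 3. All MTT arrays lay above all MPC arrays, and the MTT replicates were the tighter group. MTT cells averaged 12.04 ± 0.0066 (SD, n = 3) and MPC cells 11.73 ± 0.07 (SD, n = 3). MTT minus MPC came to 0.31 (± 0.040 SE, n = 3 a line, limma adjusted p = 0.00326) on the log2 scale, a signal 1.24 times that of MPC cells. Pik3ca and Pik3cb, the catalytic subunits found in most tissues, had differences of 0.0074 (95% interval -0.066 to 0.081) and 0.017 (95% interval -0.06 to 0.094). Pik3cd, the subunit best known from leukocytes, read 8.41, 8.33 and 8.30 on the MTT arrays and 8.49, 8.43 and 8.46 on the MPC arrays. Its groups did not overlap, and the difference of -0.11 did not pass (limma adjusted p = 0.144), though it did among genes above the median signal (0.0433). The regulatory subunits Pik3r2 and Pik3r3 had differences of -0.045 and -0.087, and Pik3cg, which answers to G-protein-coupled receptors, one of 0.013, none past the threshold.

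Pik3r1 lies on chromosome 13, and so does Tbc1d7, the other gene that was higher. Genes of chromosome 13 were higher in MTT cells as a group: 249 of 735 were called higher and 12 lower, with a median difference of 0.081 over all of them and 0.20 over the 368 with a signal above the median. When each array's median signal over the genes of a chromosome was subtracted from that chromosome's genes, the difference of Pik3r1 was 0.19 (limma adjusted p = 0.0555) and that of Tbc1d7 0.16 (limma adjusted p = 0.274). Neither passed, and none of the 48 genes was then called higher in MTT cells. The subtracted median took in the dim genes of the chromosome too, whereas Pik3r1 and Tbc1d7 are both among its genes above the median signal. The part of this chromosome-wide difference in both values was not tested. Outside chromosomes 13 and 19, 3 of 45 pathway genes (6.67%) and 6.42% of all genes were called.

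The class II and class III lipid kinases did not pass. Pik3c2b, a class II kinase, read 8.53, 8.57 and 8.58 on the MTT arrays and 8.48, 8.49 and 8.42 on the MPC arrays, without overlap and with a difference of 0.10 (limma adjusted p = 0.169). Pik3c2a, with a role in endocytosis, and Pik3c3, the class III kinase Vps34 of autophagy, had differences of -0.071 and 0.072. Of the phosphatases that end the signal, Phlpp1, which takes a phosphate off AKT, read 7.73, 7.84 and 7.70 on the MTT arrays and 7.60, 7.65 and 7.63 on the MPC arrays. Every MTT value lay above the MPC values, but the difference of 0.13 did not pass (limma adjusted p = 0.128) and the signal is dim. Its paralog Phlpp2 differed by -0.011 (95% interval -0.084 to 0.061), and the lipid phosphatases Inpp4b and Inpp5d by -0.049 and 0.027.

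None of the PDK1, AKT and SGK kinases at the center of the pathway passed the test. Akt1, the most widely expressed AKT, read 11.79, 11.77 and 11.80 on the MTT arrays and 11.76, 11.76 and 11.77 on the MPC arrays, with overlapping groups and a difference of 0.022 (95% interval -0.049 to 0.094, limma adjusted p = 0.76). Akt2, the isoform tied to insulin action, read 12.07, 12.03 and 12.04 on the MTT arrays and 12.02, 11.95 and 11.96 on the MPC arrays. Its groups did not overlap, at a difference of 0.069 (limma adjusted p = 0.304), and a further probe set of Akt2 gave 0.0031. Whether the probe sets used for Akt2 and Eif4e, the brightest of several, also read a near-identical copy was not checked, so both are uncertain. Pdpk1, which encodes PDK1, had a difference of -0.025. Of the SGK kinases, which share substrates with AKT, Sgk1 read 7.52, 7.45 and 7.40 on the MTT arrays and 7.34, 7.21 and 7.38 on the MPC arrays, a dim signal with a difference of 0.15 that did not pass (limma adjusted p = 0.167), and Sgk3 differed by -0.033.

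Foxo1 had the largest difference among the 48 genes. FoxO1 moves into the nucleus when AKT is inactive and turns on genes of cell cycle arrest, stress defense and metabolism. Foxo1 read 8.60, 8.52 and 8.62 on the MTT arrays and 9.18, 9.11 and 9.04 on the MPC arrays. The highest MTT value was far below the lowest MPC value, and the lines averaged 8.58 ± 0.05 (SD, n = 3) for MTT and 9.11 ± 0.07 (SD, n = 3) for MPC. MTT minus MPC was -0.53 (± 0.046 SE, limma adjusted p = 0.000345), so that the MTT signal was 0.692 times that of MPC cells. This call held under each of 15 alternative settings, with adjusted p from 5.41e-06 to 0.0254. The MTT mean of Foxo1 lay above 8.28, the median over all genes. It was still within the range of the markers of other cell types, whose highest mean was 8.75. Foxo3, a FoxO factor that AKT also inactivates, read 10.63, 10.59 and 10.57 on the MTT arrays and 10.72, 10.69 and 10.72 on the MPC arrays. The groups did not overlap and the difference had the same sign, at -0.11, without passing (limma adjusted p = 0.0969). It did pass in 2 alternatives, a mean-variance trend (limma adjusted p = 0.0257) and a test of the brighter genes only, those above the median signal (0.023). Foxo4, on the X chromosome and dim, had a difference of -0.015 (95% interval -0.15 to 0.12). The glycogen synthase kinases Gsk3a and Gsk3b, further AKT substrates, differed by 0.074 and 0.0075.

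**Figure D2:**
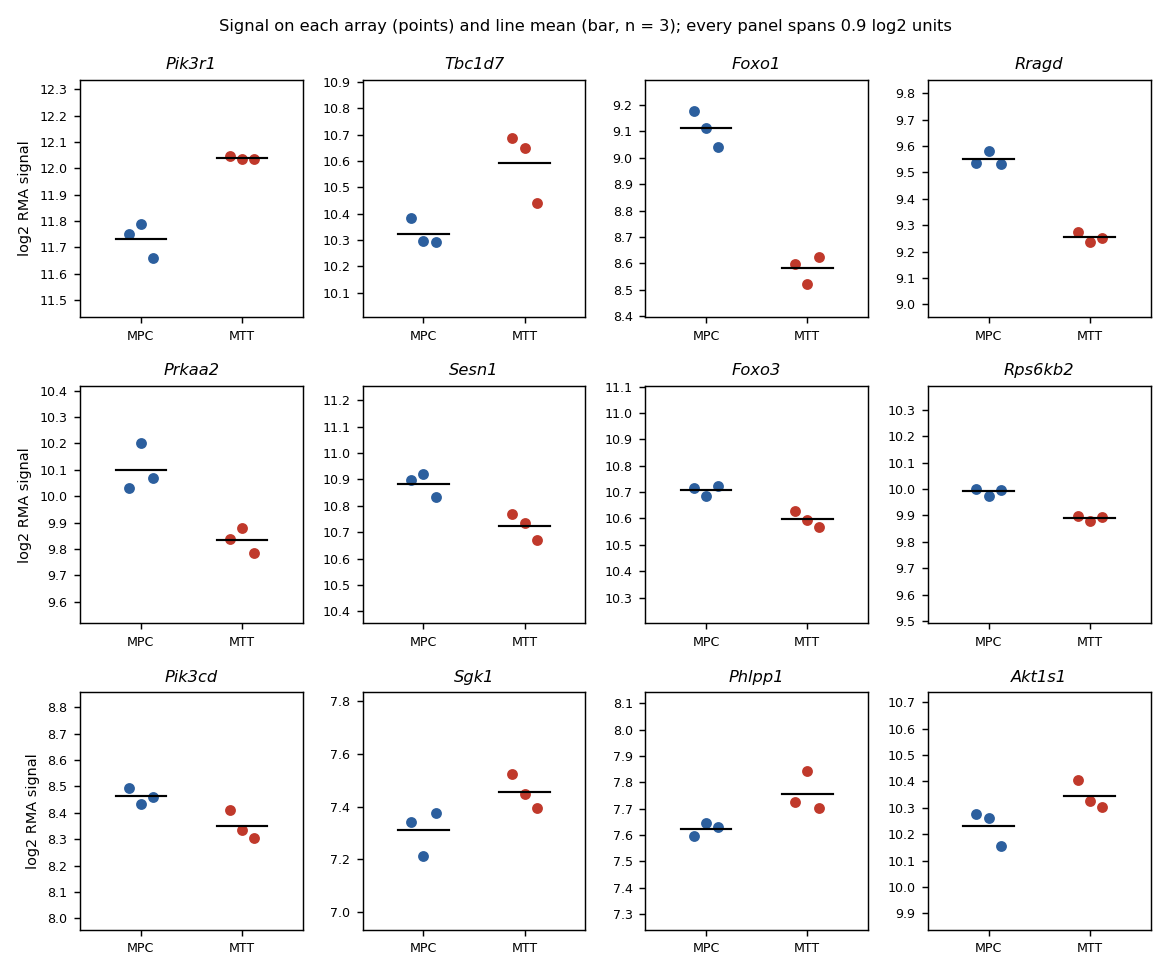
log2 RMA signal (vertical axis, each panel spanning the same 0.9 units) of 12 genes on the 3 MPC arrays (blue) and the 3 MTT arrays (red); bars are means of 3. The groups do not overlap in any panel, and the gap is widest for Foxo1, with means of 8.58 and 9.11.

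In the TSC complex, which switches Rheb off, Tbc1d7 was higher in MTT cells and neither Tsc1 nor Tsc2 passed. Tbc1d7 stabilizes the pairing of the other subunits. It read 10.69, 10.65 and 10.44 on the MTT arrays and 10.38, 10.30 and 10.29 on the MPC arrays, so that MTT replicate 3 stood closer to the MPC arrays than to its own line. The difference was 0.27 (± 0.066 SE, limma adjusted p = 0.0463), the signal 1.2 times that of MPC cells. This call was near the threshold: it was lost in 5 of 6 fits with 1 array removed (limma adjusted p from 0.0712 to 0.154) and passed only without MTT replicate 3 (0.00749), and it was also lost with ordinary variances (0.201) and with all probe sets tested (0.0506). Tsc1 read 10.25, 10.28 and 10.29 on the MTT arrays and 10.28, 10.28 and 10.25 on the MPC arrays, with a difference of 0.0023 (95% interval -0.071 to 0.076). Tsc2, the subunit that acts on Rheb, read 11.33, 11.29 and 11.30 on the MTT arrays and 11.31, 11.27 and 11.25 on the MPC arrays, with a difference of 0.032 (95% interval -0.046 to 0.11). Rheb itself differed by -0.019.

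No gene of the mTOR complexes passed the test. Mtor read 10.17, 10.16 and 10.12 on the MTT arrays and 10.16, 10.15 and 10.12 on the MPC arrays, and its groups overlapped, with a difference of 0.0066 (95% interval -0.069 to 0.082). Rptor and Rictor, which define mTORC1 and mTORC2, differed by -0.017 and -0.072, the shared subunit Mlst8 by -0.0059 and Mapkap1 of mTORC2 by -0.044. Akt1s1, which encodes the AKT substrate and mTORC1 inhibitor PRAS40, read 10.40, 10.33 and 10.30 on the MTT arrays and 10.28, 10.26 and 10.15 on the MPC arrays. The MTT arrays lay above the MPC arrays by little, and the difference of 0.11 did not pass (limma adjusted p = 0.202). The inhibitor Deptor differed by 0.10, with a wide spread among the MPC arrays (SD 0.13, n = 3).

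Downstream of mTORC1, Rps6kb2, a ribosomal S6 kinase, read 9.90, 9.88 and 9.89 on the MTT arrays and 10.002, 9.98 and 9.997 on the MPC arrays. The replicates were tight and the groups did not overlap, yet the difference of -0.10 did not pass (limma adjusted p = 0.0947), though it did with a mean-variance trend (limma adjusted p = 0.0476), among the brighter genes (0.0209) and with ordinary variances (0.0275). Rps6kb2 lies on chromosome 19, whose genes were lower in MTT cells (median difference -0.11 over 337 genes above the median signal), and after subtraction of chromosome medians its difference was 0.0015. The translation repressors Eif4ebp1 and Eif4ebp2 differed by 0.10 and 0.011, and Eif4e, the cap-binding protein that they hold, by -0.028, with further probe sets of Eif4e at 0.057 and 0.019. None of these passed.

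In the energy branch, the AMPK subunit Prkaa2 was lower in MTT cells, and its paralog Prkaa1 did not pass. AMPK is activated when energy is low and restrains mTORC1 by acting on TSC2 and raptor, and both genes encode the catalytic alpha subunit. Prkaa2 read 9.84, 9.88 and 9.79 on the MTT arrays and 10.03, 10.20 and 10.07 on the MPC arrays. The groups did not overlap, and the difference was -0.27 (± 0.051 SE, limma adjusted p = 0.0166), a signal 0.831 times that of MPC cells. The call ended without MTT replicate 1 (limma adjusted p = 0.0621), without MTT replicate 3 (0.0639) and with ordinary variances (0.11). Prkaa1 differed by 0.0097 (95% interval -0.061 to 0.081). Stk11, which encodes LKB1, the kinase upstream of AMPK, read 11.39, 11.30 and 11.40 on the MTT arrays and 11.34, 11.42 and 11.28 on the MPC arrays, with overlapping groups and a difference of 0.016 (95% interval -0.09 to 0.12).

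In the amino acid branch, Rragd was lower in MTT cells, and its paralog Rragc did not pass. RagC and RagD are alternative partners of RagA or RagB in the dimer that brings mTORC1 to the lysosome, and Rragd is known as a target of TFEB family factors. Rragd read 9.27, 9.24 and 9.25 on the MTT arrays and 9.54, 9.58 and 9.53 on the MPC arrays, a gap many times the spread within either line. MTT cells averaged 9.25 ± 0.02 (SD, n = 3) and MPC cells 9.55 ± 0.03 (SD, n = 3), with a difference of -0.30 (± 0.033 SE, limma adjusted p = 0.00137) and a signal 0.815 times that of MPC cells. It passed under each of 15 alternative settings, with adjusted p from 8.43e-05 to 0.0147. Rragc differed by -0.02 (95% interval -0.091 to 0.052).

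The sestrins, stress-induced proteins that bind GATOR2 and hold mTORC1 back when leucine is scarce, did not pass in the reported fit. Sesn1, a p53 target, came nearest and read 10.77, 10.74 and 10.67 on the MTT arrays and 10.90, 10.92 and 10.83 on the MPC arrays. All MTT values were below the MPC values, at a difference of -0.16 (limma adjusted p = 0.0551). It passed in 4 of 15 alternatives, which were the mean-variance trend, the replicate block, cyclic loess and genes above the median signal (limma adjusted p from 0.00749 to 0.0421), and in none of the 6 fits without 1 array. Sesn3, a FoxO target, had a difference of -0.13 (limma adjusted p = 0.154) without overlap, which passed with dim genes removed (0.0499), and Sesn2 one of 0.00062 (95% interval -0.12 to 0.12).

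Tmem127, the gene of this pathway with inherited mutations in PHEO, read 10.66, 10.62 and 10.68 on the MTT arrays and 10.59, 10.53 and 10.64 on the MPC arrays. The groups overlapped, and the difference was 0.067 (95% interval -0.023 to 0.16, limma adjusted p = 0.389).

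By position, 7 of the 48 genes lie on chromosome 4, of which Rragd and Prkaa2 were called lower and Pik3cd and Pik3r3 lay below without overlap and without passing, while the groups overlapped for Mtor, Rragc and Sesn2. Chromosome 4 as a whole had a median difference of -0.010 over 1160 genes, with 5.34% of them called. The groups did not overlap for 299 of its genes (25.8%), 173 of them lower in MTT cells, and for 4 of the 7. With only 7 genes, this is no result about position. The calls of Rragd and Prkaa2 held after subtraction of chromosome medians (limma adjusted p = 0.000991 and 0.0143).

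Other genes of the pathway, listed by role, fell into 5 lists with at most 2 calls each. The share called was 11.1% of the receptors and adaptors, 7.69% of other PI3K and AKT components, 2.94% of other mTORC1 regulators, 10% of further LKB1 and AMPK components and 0% of other translation genes, against 7.87% of all genes, so these counts are no result about the lists. Among 18 receptors and adaptors upstream of PI3K, the insulin receptor substrate Irs1 rose by 0.23 on the log2 scale (limma adjusted p = 0.0312) and the receptor Igf1r fell by 0.19 (0.0243). Irs1, with means of 8.25 and 8.02, is dim and not shown to lie above background. The list had 0 to 1 calls when 1 array was left out. Of 13 other PI3K and AKT components, the lipid phosphatase Inpp4a fell by 0.14 (limma adjusted p = 0.0469), a call lost whichever array was left out. Of 34 other regulators of mTORC1, Slc38a9, the arginine sensor of the lysosome on chromosome 13, was higher by 0.26 (limma adjusted p = 0.00801) but did not pass once chromosome medians were subtracted. Of 10 further LKB1 and AMPK components, Cab39l, a scaffold of LKB1, fell by 0.18 (limma adjusted p = 0.0453), and the list had 1 call without MPC replicate 3 and 0 without any other array. None of 12 other translation genes passed limma's test, with 2 at an unadjusted p under 0.05, and up to 2 were called in other settings. The median differences of the 5 lists ran from -0.051 for translation to 0.0005 for the receptors.

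Genes listed as RNA outputs of the pathway moved in both directions, and whether they follow it in these cells was not tested. Of 20 FoxO target genes, 2 were higher and 2 lower in MTT cells (20%, against 7.87% of all genes), with a median difference of 0.015. Txnip, an inhibitor of thioredoxin, fell by 0.22 (limma adjusted p = 0.00551) and Ccng2, a cyclin linked to arrest, by 0.24, while Cited2, a transcriptional regulator, rose by 0.19 and the apoptosis factor Bcl2l11 by 0.19. The 4 calls became 1 without MTT replicate 1 or MPC replicate 2, 2 without MTT replicate 2, MTT replicate 3 or MPC replicate 3, 1 with ordinary variances and 7 among the brighter genes. Of all brighter genes, 2207 of 9968 were called. Of 20 genes that mTORC1 raises through ATF4 or SREBP, 2 were higher and 4 lower (30%), at a median of 0.0050, and for 16 of the 20 (80%, against 27.2%) the arrays of the lines did not overlap, 8 in each direction. The higher ones were Slc7a11, a cystine transporter, by 0.30 (limma adjusted p = 0.00344) and Shmt2, of mitochondrial serine metabolism, by 0.27. Slc7a11 is dim, with means of 7.99 in MTT and 7.70 in MPC cells, and not shown to lie above background. Phgdh, which starts serine synthesis, fell by 0.23 on the log2 scale (limma adjusted p = 0.00622) and Srebf1, which encodes SREBP1, by 0.23. Of 15 TFEB targets of the lysosome, Gla, a galactosidase on the X chromosome, fell by 0.24 (limma adjusted p = 0.00433) and Sqstm1, an autophagy receptor, rose by 0.18, at a median of -0.0090, and the list had 1 call in each fit without 1 array.

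**Figure D3:**
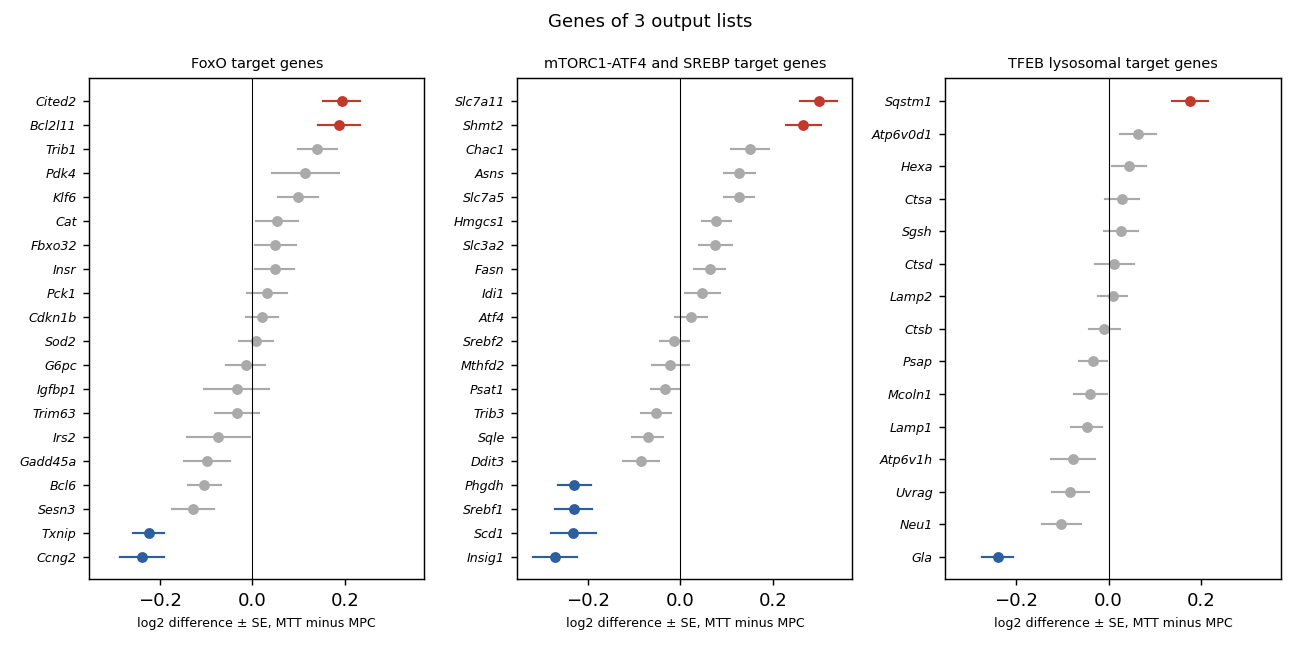
Difference in log2 signal, MTT minus MPC (horizontal axes, bars of 1 standard error, 3 against 3 arrays), of the measured genes of 3 output lists (vertical axes); red genes were higher and blue genes lower in MTT cells at a limma adjusted p under 0.05. Each list has genes on both sides of 0, with Shmt2 at 0.27 and Phgdh at -0.23 in the list of ATF4 and SREBP targets.

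**Figure D4:**
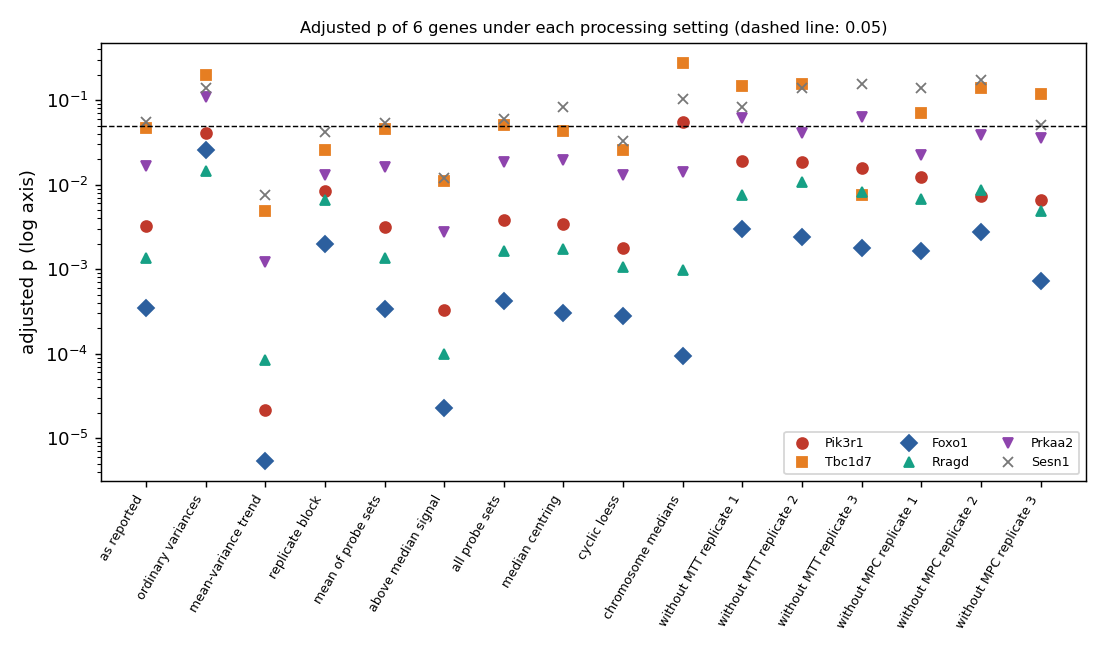
limma adjusted p (vertical log axis) of the 5 called genes and Sesn1 in the reported fit and 15 alternative settings (horizontal axis); the dashed line is the threshold of 0.05. Foxo1 and Rragd lie below the line in every setting, Pik3r1 lies above it once (0.0555) and Tbc1d7 lies above it in 8 settings.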

How the data were processed

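RNA of 3 MTT and 3 MPC samples was read on 6 one-colour Affymetrix Mouse Gene 1.0 ST arrays. The authors deposited log2 values that the RMA method had produced by background subtraction, quantile normalization between arrays and summary of each probe set. Expression Console is the program that the submitters list for this (version and genome build not given in the sources used here).

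Of 34760 probe sets, 21640 with exactly 1 symbol were kept (1321 had several and 11799 were unnamed), giving 19937 genes, of which 954 had several probe sets. Chromosomes came from RefSeq's GRCm38.p6. Both lines were compared with limma 3.58.1 (lmFit, eBayes) in R 4.3.3, tested on simulated data first. There, 47 of 100 genes with a log2 change of 0.25 and 100 of 100 with a change of 1 were recovered, and 10 of 157 calls were false. A gene that did not pass may thus still differ by about 0.25. Figures used Python 3.11.15 and matplotlib 3.10.9. Precision is limited by the number of arrays.

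The pathway genes and the other lists were chosen with earlier results of these data known. Values per array are given for each gene past the threshold, for the gene of each role with the smallest p that did not pass, and for Mtor, Akt1, Akt2, Tmem127, Tsc1, Tsc2 and Stk11. Of the other lists, up to 4 genes past the threshold are named, by smallest p. The fit was repeated with ordinary variances, that is with an unmoderated t-test in place of limma's moderated test. Further fits used a trend of variance on signal, replicate number as a blocking term, and probe sets averaged per gene or each tested alone. Others took brighter genes only, followed median centring, cyclic loess or subtraction of chromosome medians, or left out each array in turn.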

Additional observations from a re-analysis of the deposited data

How the results depend on the processing

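Foxo1 and Rragd were called in all 15 alternatives, Pik3r1 in 14, Prkaa2 in 12 and Tbc1d7 in 7, and no called gene changed sign. The 5 called genes of the pathway became 8 with a mean-variance trend (6 lower), 10 among genes above the median signal (8 lower, 41 genes tested) and 3 with chromosome medians subtracted (0 higher). In the same order, these settings called 2416 of 19937, 2207 of 9968 and 1104 of 19937 genes in all. The changed counts are thus no result about the pathway. The 2 higher genes became 1 with ordinary variances and with all probe sets, since Tbc1d7 ended there. Leaving out 1 array gave 3 to 4 called genes of the pathway, 1 to 2 higher and 2 to 3 lower. Why the settings differ was not tested. Over all genes, 1569 calls (784 higher, 785 lower) became 824 with ordinary variances (428 and 396), 2416 with a mean-variance trend (1302 lower), 2207 above the median signal (1195 lower) and 891 to 1276 without 1 array (462 to 617 higher, 429 to 659 lower). The share of higher calls stayed between 45.9% and 54.5%, and no scaling moved the median of all genes by over 0.1.

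Of the other lists, receptors and adaptors (2 calls) had 0 with ordinary variances, 1 with the mean of probe sets or chromosome medians and 0 to 1 without 1 array. Other PI3K and AKT components (1) had 0 with ordinary variances, all probe sets, median centring, cyclic loess and chromosome medians, and 0 without any 1 array. Other mTORC1 regulators (1) had 5 with a mean-variance trend, 4 above the median signal, 3 with cyclic loess, 0 with chromosome medians and 1 to 2 without 1 array. LKB1 and AMPK components (1) had 0 with ordinary variances, median centring and chromosome medians and 0 to 1 without 1 array. Translation genes (0) had 2 with a mean-variance trend and above the median signal, 1 with the mean of probe sets and 0 to 1 without 1 array. FoxO targets (4) had 1 with ordinary variances, 7 above the median signal and 1 to 3 without 1 array. The ATF4 and SREBP targets (6) had 5 to 6 and the TFEB targets (2) 1 without 1 array, the latter also 1 with ordinary variances.

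Both lines carry replicate numbers 1 to 3, but nothing says that a number marks a shared day or batch. Deviations from the line means correlated by 0.116, 0.074 and 0.249 between samples of the same number and by -0.161 to 0.066 otherwise (Pearson's r across genes, which are not independent), and each of the 6 samples correlated best with its own number, which is a hint from the data and not from the design. With the number as a block, 6 genes of the pathway were called (2 higher and 4 lower, Sesn1 being added), 1501 genes in all, and 0 each of the other PI3K and AKT components and of the LKB1 and AMPK components.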
